A study of Mus musculus with 8 samples.

Results

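Guidance and Notch genes encode the ligands, receptors and target factors by which neighbouring cells steer movement, contact and fate. They were followed here by RNA-seq in cardiomyocytes, the heart's contractile cells, which were cultured from adult C57BL/6 mice. All cells received 100 µM phenylephrine, an alpha1-adrenergic agonist used to induce hypertrophic growth, for 24 h starting 24 h after transfection. Of the 8 libraries, 4 came from cells given the siRNA labelled siN, taken as the control, and 4 from cells given the one labelled siHoxa5. Hoxa5 encodes a homeobox transcription factor. No library without phenylephrine was used. Separate animals or cultures are not named for the 4 repeats in the labels, so p-values measure only the spread between these libraries, which may be technical.

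Genes were chosen by symbol (semaphorins of classes 3 to 7, plexins, neuropilins, ephrins, Eph receptors, netrins, UNC5 receptors, Slits, Robos, Notch receptors, Jagged and Delta-like ligands, and Hes and Hey factors) and selected on a sum of at least 16 counts over the 8 libraries. The sum does not use the contrast between groups. Of 97 rows that carry such a symbol, 27 reached it, out of 33514 rows in all. These 27 genes held 7813 counts, 0.158% of the total. Just inside the limit lay EPHB1 with 18 counts, EFNA1 with 21 and EPHA3 with 23, and just outside it PLXNB1 and EPHA4 with 15 each.

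As background, semaphorins bind plexins, often with a neuropilin as coreceptor, and plexins act on small GTPases and the actin cytoskeleton. Ephrins and Eph receptors both sit in membranes and signal into both cells at a contact. Slits signal through Robos, and netrins through DCC, neogenin and UNC5 receptors. Jagged and Delta-like ligands on one cell trigger cleavage of Notch receptors on its neighbour, and the freed Notch domain turns on Hes and Hey repressors with the DNA-binding partner RBPJ. In the heart these systems are best known from development of valves, vessels and innervation.

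The siN libraries held 635824 to 658192 counts and the siHoxa5 libraries 560190 to 619942, so that a single count was worth 1.53 to 1.82 CPM (counts per 1 000 000 counts). The ranges of the totals did not overlap. HOXA5 itself had 2, 0, 3 and 3 counts in siN and 1, 3, 4 and 1 in siHoxa5 libraries 1 to 4, too few to show whether its level was lowered (exact permutation test of CPM, two-sided, p = 0.657). Each direction below is therefore that of the siHoxa5 label relative to the siN label. Of 14 listed cardiomyocyte markers 10 had counts, and TNNI3, MYL2, MYL3 and PLN were at 0 in all 8 libraries. Listed fibroblast markers, 7 of 10 with counts, summed to 10220 to 10910 CPM in siN and 10960 to 12880 in siHoxa5. Nearly all of that sum was COL1A1 and COL1A2, while PDGFRA, DCN, COL3A1 and POSTN had 0 to 5 counts per library and LUM, TCF21 and DPT were at 0. Leukocyte markers summed to at most 1.82 CPM. On the first principal component siHoxa5 libraries 2 and 4 lay farthest from siN. The files spell symbols as human genes are spelled, and some tested rows, such as C12orf66 and AL133387.3, carry names given to human genes or clones. Of the 33514 rows, 19 were spelled as in the mouse annotation GENCODE M21. A further 16226 matched a mouse name only when case was ignored. Which annotation was counted is not given. Rows with a mouse namesake, ignoring case, held 96.74% of the counts.

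Many rows of these families were empty. Of the 97, 44 had 0 counts in every library and 26 had 1 to 15 counts, 140 counts together. Of the 44 empty rows 35 have a mouse namesake in GENCODE M21. The other 9 include all 8 antisense rows that the symbols take in. In any single library a count of 0 allows up to 3 counts, which is 4.60 to 5.46 CPM, for counting error only. An empty row is therefore given as listed at 0 and not as a gene the cells lack, since heart muscle genes such as MYL2 were at 0 too. All 27 genes that reached the limit matched a mouse gene by name.

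**Figure D1:**
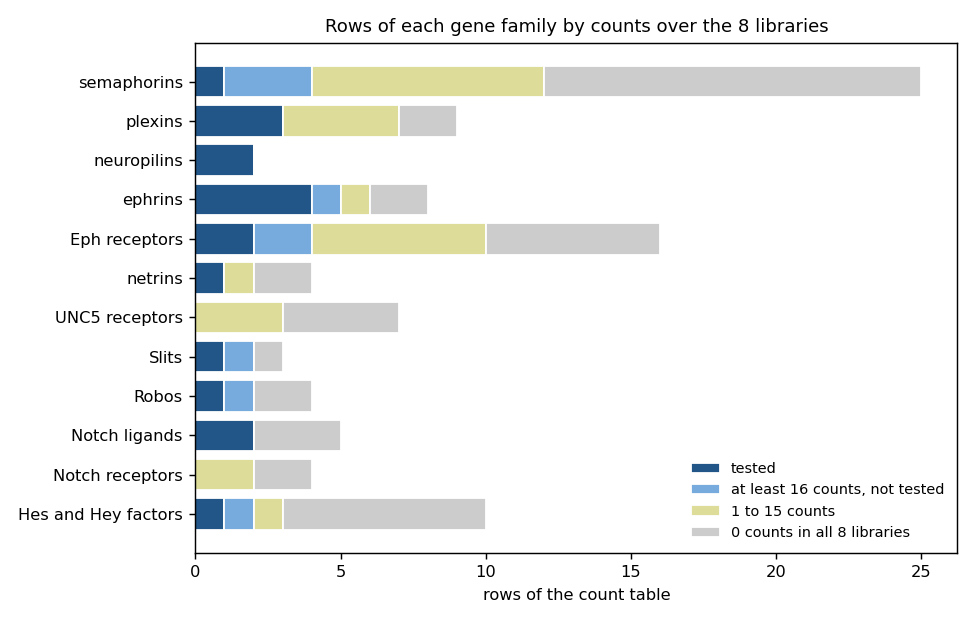
Rows of the count table in each gene family (x axis, number of rows), coloured by their counts over the 8 libraries. Semaphorins had the most rows, 25, of which 13 were at 0 and 1 was tested, while both neuropilins were tested and no Notch or UNC5 receptor reached 16 counts. Families were taken by symbol, so the UNC5 bar also holds UNC50 and UNC5CL, which are not netrin receptors, and UNC5B-AS1, all at 0.

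The expression filter, about 15.9 CPM in at least 4 libraries, kept 18 of the 27 genes among 3020 genes tested. Of these 18, JAG2 fell, PLXNA4 rose and 16 did not pass (quasi-likelihood test of edgeR, adjusted p under 0.05 after Benjamini-Hochberg). That is 11.1% of the 18, against 7.12% of all tested genes. By direction, the background was 3.38% lower and 3.74% higher. At an unadjusted p under 0.05 there were again 2 of 18, where all tested genes gave 19.6%. By these call rules the genes did not stand clear of the background, with 2 calls in all.

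The median log2 fold change of the 18 was 0.01, with 9 above and 9 below 0, beside a median of -0.00 over all 3020 genes. JAG2, PLXNA4, EFNA5, EFNB1 and EPHA7 had CPM values that did not overlap between groups, 5 of 18 or 27.8%, against 12% of all tested genes. The other 9 genes were read from a fit of all 4397 genes with at least 16 counts. In that fit 1 of the 27, JAG2, passed (4.18% of all genes did), and 2 of the 27 had an unadjusted p under 0.05 (15.7% of all). Of the 18, 13 reached the filter's level in all 8 libraries. SEMA6A, PLXNC1, NRP1, PLXNB2 and EPHB2 reached it in 4 to 7.

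**Figure D2:**
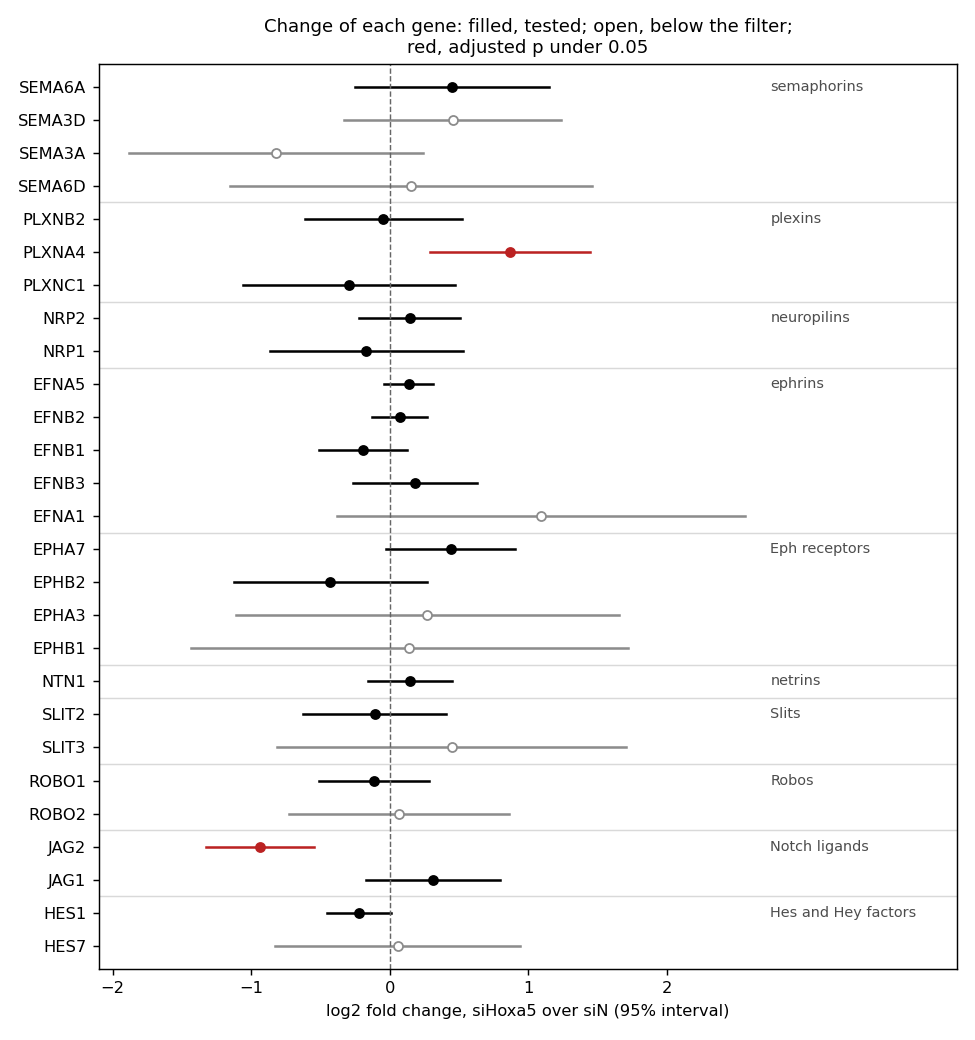
Log2 fold change of siHoxa5 over siN (x axis) with its 95% interval for each of the 27 genes, grouped by family. Only the intervals of JAG2, from -1.32 to -0.55, and of PLXNA4, from 0.29 to 1.45, lie to 1 side of 0 among the 18 tested genes; open symbols are genes below the filter, from the fit of all genes with at least 16 counts.

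Among the Notch ligands, JAG2 fell. JAG2, a transmembrane ligand of Notch receptors on chromosome 12 (GRCm38, 112907819 to 112929776, minus strand, ENSMUSG00000002799.6), had 83.05, 73.0, 92.9 and 90.4 CPM in siN libraries 1 to 4. In siHoxa5 libraries 1 to 4 it had 47.35, 41.9, 45.65 and 41.8 CPM. All 4 siHoxa5 libraries lay below the lowest siN library. Group means were 84.8 ± 8.91 CPM in siN and 44.2 ± 2.77 CPM in siHoxa5 (SD, n = 4 each). On the log2 scale the change was -0.94 with an SE of 0.20 (adjusted p = 0.000251, edgeR). The fitted level in siHoxa5 was 0.523 of that in siN. JAG2 stayed past the threshold in all 16 other settings tried, with log2 fold changes from -0.998 to -0.860 and adjusted p from 0.000207 to 0.0185.

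The JAG2 counts behind these values were 54, 46, 59 and 59 in siN and 29, 23, 28 and 23 in siHoxa5. Their spread within groups was 0.347 of what counting error alone gives on average, so the libraries of a group differed little. No exon of another annotated mouse gene overlaps Jag2. In bulk RNA, fewer cells of a type and less RNA per cell cannot be told apart. JAG2 is also a gene of vessel walls, and 5 of 12 listed endothelial markers had counts. Their summed level was 34.6 to 55.6 CPM in siN and 20.01 to 52.25 CPM in siHoxa5. ENG, the only endothelial marker tested, had 19.9 to 23.8 CPM in siN and 9.78 to 16.4 CPM in siHoxa5. Its log2 fold change of -0.65 (SE 0.37) did not pass (adjusted p = 0.328 in edgeR). KDR and TEK were not tested, and their groups overlapped. PECAM1, CDH5, TIE1, VWF, EGFL7, ESAM and CLDN5 were at 0 in all 8 libraries. The summed cardiomyocyte markers were higher in every siHoxa5 library, 89410 to 95780 CPM against 69740 to 74280 in siN. That sum was mostly MYH6, MYH7 and TPM1. Of the 10 markers with counts, 6 rose, 3 did not pass and TNNT2, cardiac troponin T, fell from 181 ± 30.1 to 133 ± 26.1 CPM (SD, n = 4 each, log2 change -0.44, adjusted p = 0.0257 in edgeR). Their part in the values of JAG2 and of the other genes that changed was not tested.

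JAG1, the other Jagged ligand, did not pass. It had 30.8, 25.4, 61.4 and 30.6 CPM in siN and 39.2, 60.1, 45.65 and 40.01 CPM in siHoxa5. Library 3 of siN stood far above its group and the ranges overlapped. The log2 fold change was 0.32 (SE 0.24, interval -0.17 to 0.80), so a change as large as that of JAG2 in the downward direction lies outside the interval. Without siN library 3 it was 0.67 and still did not pass.

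The balance of both ligands was read within each library, which needs no scaling between libraries. JAG2 made up 73.0%, 74.2%, 60.2% and 74.7% of Jagged counts in siN and 54.7%, 41.1%, 50% and 51.1% in siHoxa5. Every siHoxa5 share lay below every siN share, although the exact 95% intervals of siN library 3 (49.8% to 70%) and siHoxa5 library 1 (40.4% to 68.4%) overlap widely. The shift contains the fall of JAG2 already given and is a description. DLL1, DLL3 and DLL4, the Delta-like ligands, were listed at 0 in all 8 libraries.

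**Figure D3:**
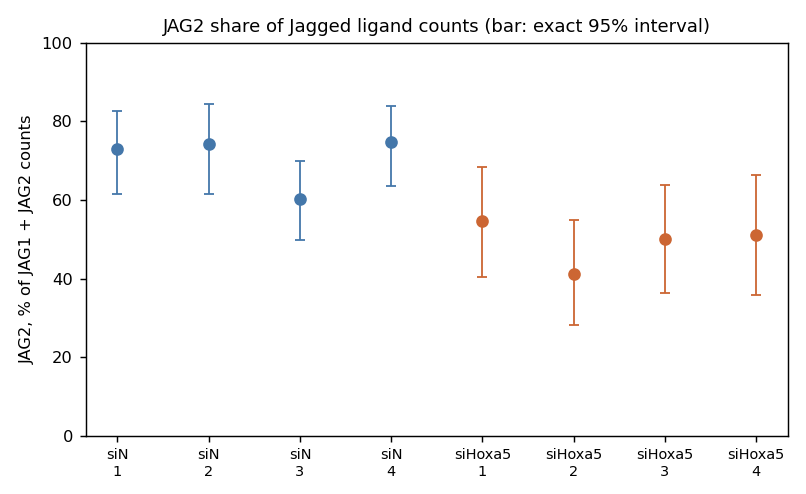
Share of JAG2 in the JAG1 and JAG2 counts of each library (y axis, %), with exact 95% binomial intervals for counting error. The siN libraries lie between 60.2% and 74.7% and the siHoxa5 libraries between 41.1% and 54.7%.

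Notch receptors could not be compared. NOTCH1 had 8 counts in all, NOTCH3 had 1, and NOTCH2 and NOTCH4 were at 0. Of their target factors only HES1, a basic helix-loop-helix repressor and classical Notch target on chromosome 16 (30064384 to 30067796, plus strand), was tested. HES1 had 215, 206, 222 and 208 CPM in siN and 157, 157, 189 and 231 CPM in siHoxa5. Libraries 1 to 3 of siHoxa5 lay below all siN libraries and library 4 above them.

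The group means of HES1 were 213 ± 7.09 and 183 ± 35.2 CPM (SD, n = 4 each), and the log2 fold change of -0.22 (SE 0.12, interval -0.45 to 0.01) did not pass (adjusted p = 0.286 in edgeR). The change ranged from -0.34 without siHoxa5 library 4 to -0.14 without siHoxa5 libraries 2 and 3, and it passed in no setting. HES7, the segmentation clock repressor, had 5 to 9 counts in every library and a log2 fold change of 0.06 (SE 0.45) in the wider fit. In GENCODE M21 an opposite-strand coding gene covers 12.9% of its exonic length. Its reads may therefore be uncertain, but whether that annotation was counted is not known. HEY1 had 8 counts in all, and HEY2, HEYL and HES2 to HES6 were at 0.

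**Figure D4:**
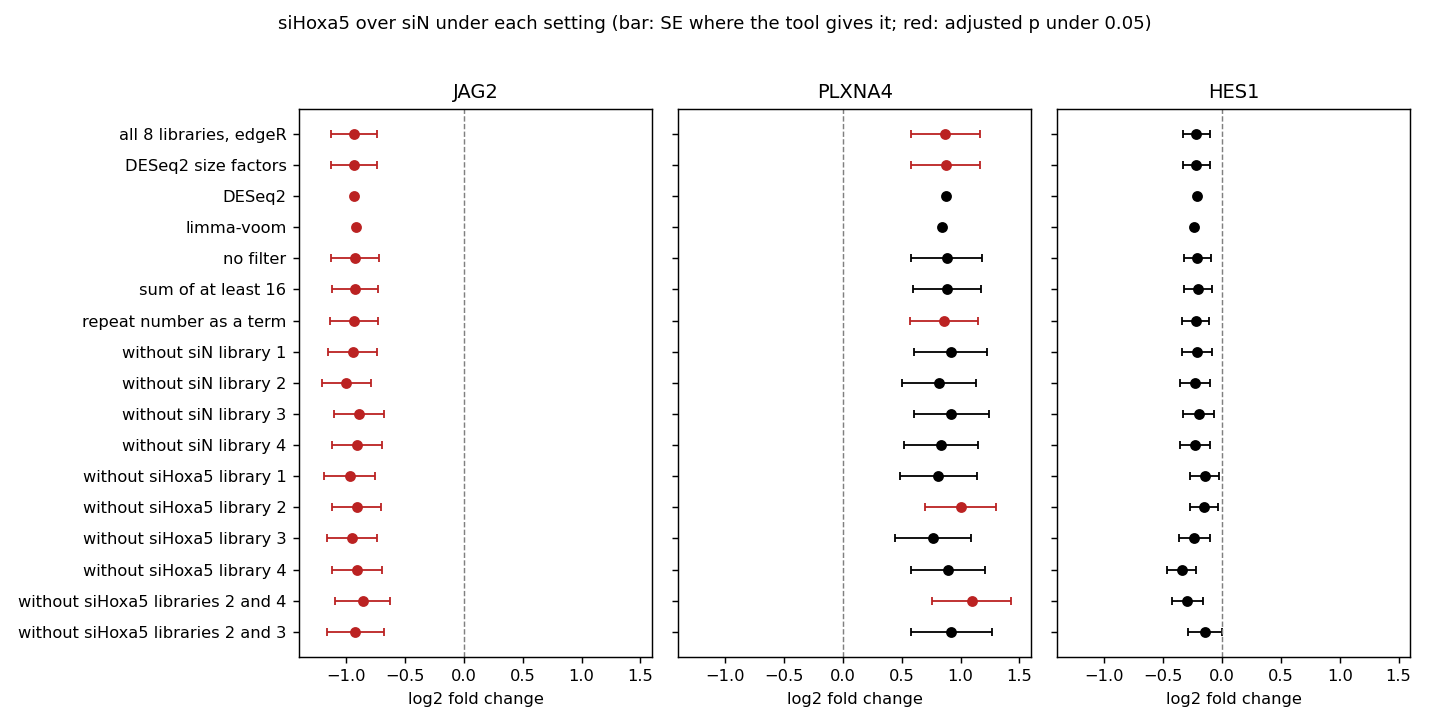
Log2 fold change of siHoxa5 over siN (x axis) for JAG2, PLXNA4 and HES1 under each setting (rows), with SE bars for the edgeR fits and red for an adjusted p under 0.05. JAG2 is past the threshold in every row, PLXNA4 in the analysis of all 8 libraries and 4 other settings, and HES1 in none.

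The machinery around Notch, a list of 56 genes without the genes above, had 28 tested members. FURIN fell, none rose and 27 did not pass, with a median of 0.02 (all tested genes: -0.00). Over all tested genes 7.12% were called and 3.38% were called lower. The 1 call in 28 was thus under the share called in all and close to the share called lower. FURIN encodes the convertase that cuts Notch precursors, among many other proteins, on their way to the cell surface. It had 195, 200, 205 and 216 CPM in siN and 113, 122, 147 and 111 CPM in siHoxa5, with no overlap. Its means were 204 ± 8.86 and 123 ± 16.5 CPM (SD, n = 4 each). The log2 change was -0.72 (SE 0.13, adjusted p = 5.88e-06 in edgeR), and it passed in all 16 other settings.

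The next smallest p in that list was that of CTBP1, a corepressor, with 43.2 ± 8.86 CPM in siN and 66.5 ± 9.94 CPM in siHoxa5 (log2 fold change 0.62, SE 0.21, adjusted p = 0.0532 in edgeR). It passed in 3 of 16 other settings. Values of 6 further tested genes are given, chosen after all were seen, and none of the 6 passed. RBPJ had 140 ± 12.9 and 140.5 ± 12.3 CPM (log2 fold change 0.01, interval -0.26 to 0.27). ADAM10, the protease that sheds the ligand-bound receptor, had a log2 fold change of -0.03 (interval -0.19 to 0.13), and APH1A, a gamma-secretase subunit, -0.00 (interval -0.15 to 0.15). Further from 0 were MAML3, a Notch coactivator, at 0.41 (SE 0.33), MIB1, a ubiquitin ligase for Notch ligands, at 0.23 (SE 0.16), and KAT2A, an acetyltransferase, at -0.41 (SE 0.21).

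Among the plexins, the semaphorin receptors, PLXNA4 rose. It encodes a class A plexin that pairs with neuropilins for class 3 semaphorins and lies on chromosome 6 (32144268 to 32588192, minus strand, ENSMUSG00000029765.12). PLXNA4 had 21.5, 17.5, 22.0 and 18.4 CPM in siN and 40.8, 25.5, 44.0 and 34.6 CPM in siHoxa5. The groups did not overlap, with siHoxa5 library 2 nearest to siN. The counts were small, 11 to 14 per siN library and 14 to 27 per siHoxa5 library.

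PLXNA4 had means of 19.9 ± 2.27 and 36.2 ± 8.16 CPM (SD, n = 4 each). The log2 change was 0.87 (SE 0.29, adjusted p = 0.0493 in edgeR). The call was at the threshold: it was lost in 12 of 16 other settings, with DESeq2 (adjusted p = 0.208), with limma-voom (0.0676), with either wider filter, without any single library other than siHoxa5 library 2, and without siHoxa5 libraries 2 and 3 together. The direction was the same in all 16, from 0.76 to 1.09. In GENCODE M21 an antisense RNA overlaps 0.78% of its exonic length. Reads of both could not be told apart there without strand, but whether that annotation was counted is not known.

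The other tested plexins did not pass. PLXNB2, a receptor for class 4 semaphorins, had 43.1, 23.8, 28.3 and 30.6 CPM in siN and 44.1, 14.6, 17.9 and 45.5 CPM in siHoxa5. Its siHoxa5 libraries split, with libraries 2 and 3 under and 1 and 4 over all siN libraries. The log2 fold change was -0.05 (SE 0.29), and did not pass. Leaving out siHoxa5 libraries 2 and 3, chosen because several of these genes were low in both, gave 0.50, a shift that the choice itself produces. PLXNC1, the receptor of SEMA7A, ranged from 12.7 to 25.2 CPM in siN and from 6.52 to 23.7 CPM in siHoxa5 (log2 fold change -0.29, SE 0.39). Leaving out 1 library moved that value between -0.62, without siHoxa5 library 2, and -0.04, without siHoxa5 library 3, and leaving out siHoxa5 libraries 2 and 4 gave -1.08, none of which passed. PLXNA1, PLXNA3, PLXNB1 and PLXND1 had 2 to 15 counts each, and PLXNA2 and PLXNB3 none.

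Both neuropilins, coreceptors for class 3 semaphorins and for vascular endothelial growth factors, were tested and neither passed. NRP2 had 76.9, 85.7, 56.7 and 59.7 CPM in siN and 65.3, 74.7, 76.6 and 92.8 CPM in siHoxa5 (log2 fold change 0.14, interval -0.22 to 0.51). NRP1 ranged from 12.59 to 27.7 CPM in siN and from 12.75 to 20.01 CPM in siHoxa5 (log2 fold change -0.17, interval -0.87 to 0.53). The siHoxa5 values of both lay mostly inside the siN range.

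Of the semaphorins, 4 reached 16 counts and SEMA6A alone was tested. SEMA6A, a transmembrane semaphorin that binds class A plexins, had 21.5, 7.94, 15.7 and 19.9 CPM in siN and 11.4, 18.2, 27.7 and 32.7 CPM in siHoxa5 (log2 fold change 0.45, SE 0.35, adjusted p = 0.529 in edgeR). The groups overlapped. Leaving out 1 library gave 0.23 (siHoxa5 library 4) to 0.68 (siHoxa5 library 1). The secreted class 3 semaphorins SEMA3D and SEMA3A had 74 and 42 counts in all. In the wider fit SEMA3D had a log2 fold change of 0.46 (SE 0.40) and SEMA3A, a repellent of sympathetic axons in the heart, of -0.82 (SE 0.54).

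SEMA3A was at 6.15, 11.11, 11.02 and 15.3 CPM in siN and 3.27, 3.64, 8.15 and 9.09 CPM in siHoxa5, a difference of a few counts per library that did not pass (unadjusted p = 0.128). SEMA6D, a transmembrane semaphorin, had 1 to 5 counts per library. Of the other 21 semaphorin rows, 8 had 1 to 12 counts and 13, with SEMA3C and SEMA3F among them, were at 0.

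The ephrins carried 3770 of the 7953 counts of all 97 rows. Of 4 tested, none passed. EFNA5, a lipid-anchored ephrin of class A, had 335, 324, 327 and 334 CPM in siN and 369, 366, 344 and 375 CPM in siHoxa5. Every siHoxa5 library was higher than every siN library, by a small step. The log2 fold change of 0.14 (SE 0.09, interval -0.04 to 0.32) did not pass (adjusted p = 0.422 in edgeR).

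EFNB2, the transmembrane ephrin known from arterial endothelium, had 264 to 296 CPM in siN and 244 to 308 CPM in siHoxa5 (log2 fold change 0.07, interval -0.13 to 0.27). EFNB1, a transmembrane ephrin also found at the lateral membrane of cardiomyocytes, had 95.4, 101.6, 94.4 and 111.8 CPM in siN and 91.4, 78.3, 91.3 and 90.9 CPM in siHoxa5. All siHoxa5 values of EFNB1 lay under all siN values, yet the log2 fold change of -0.19 (SE 0.16, adjusted p = 0.560 in edgeR) did not pass. EFNB3 had 29.2 to 52.1 CPM in siN and 43.7 to 60.0 CPM in siHoxa5 (log2 fold change 0.18, SE 0.23).

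As a share of the ephrin counts of each library, EFNB1 made up 13.1%, 14.1%, 12.6% and 14% in siN and 11.2%, 10.6%, 11.4% and 11.2% in siHoxa5. The shares of EFNB1 did not overlap between groups, while those of EFNA5, EFNB2, EFNB3 and EFNA1 did. The EFNB1 share contains the values of EFNB1 and EFNA5 already given, neither of which passed, and is a description. No test was made of the shares. EFNA1, below the filter, had 1, 1, 3 and 2 counts in siN and 5, 4, 4 and 1 in siHoxa5, a log2 fold change of 1.09 (SE 0.74, unadjusted p = 0.143) that 21 counts cannot resolve.

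Eph receptors, the tyrosine kinases that ephrins bind, had 2 tested members and none passed. EPHA7 had 33.8, 34.9, 34.6 and 39.8 CPM in siN and 44.1, 49.2, 45.65 and 56.4 CPM in siHoxa5. Every siHoxa5 library lay above every siN library. Means were 35.8 ± 2.72 and 48.8 ± 5.47 CPM (SD, n = 4 each). The log2 change was 0.44 (SE 0.23, interval -0.02 to 0.90, adjusted p = 0.284 in edgeR), and it passed in none of the 16 other settings.

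EPHB2, a receptor of class B ephrins, had 21.5, 42.9, 20.5 and 19.9 CPM in siN and 31.0, 7.29, 8.15 and 30.9 CPM in siHoxa5. Its siHoxa5 libraries split like those of PLXNB2, with libraries 2 and 3 low. The log2 change was -0.43 (SE 0.35, adjusted p = 0.551 in edgeR) and did not pass. Without siN library 2, the highest of its group, it was -0.09. Without siHoxa5 libraries 2 and 3 it was 0.24, but those were left out because they were low, a choice that by itself moves the value up. EPHA3 and EPHB1 had 23 and 18 counts in all. A further 6 Eph rows had 2 to 15 counts, and 6, EPHA1-AS1 and EPHA5-AS1 among them, had none.

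NTN1, the secreted guidance cue netrin 1, had 93.8, 109.5, 86.6 and 111.8 CPM in siN and 112.7, 98.4, 114.1 and 120.0 CPM in siHoxa5. The groups overlapped and the log2 fold change of 0.15 (SE 0.15, interval -0.16 to 0.45) did not pass. Of its receptors, UNC5A, UNC5C and UNC5D had 9 counts together and UNC5B was at 0. NEO1, neogenin, from the list of partners, had 301 ± 39.4 and 302 ± 10.7 CPM (log2 fold change 0.00, interval -0.19 to 0.19).

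SLIT2, a secreted ligand of Robos, had 41.5, 49.2, 28.3 and 29.1 CPM in siN and 48.98, 20.04, 29.35 and 38.2 CPM in siHoxa5, both groups spreading over about the same range (log2 fold change -0.11, SE 0.26). ROBO1, its receptor, had 56.9, 81.0, 53.5 and 58.2 CPM in siN and 58.8, 49.2, 62.0 and 60.0 CPM in siHoxa5 (log2 fold change -0.11, SE 0.20). Neither passed. SLIT3 and ROBO2 had 29 and 68 counts in all and log2 fold changes of 0.45 (SE 0.64) and 0.07 (SE 0.40) in the wider fit. SLIT1, ROBO3 and ROBO4 were at 0.

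**Figure D5:**
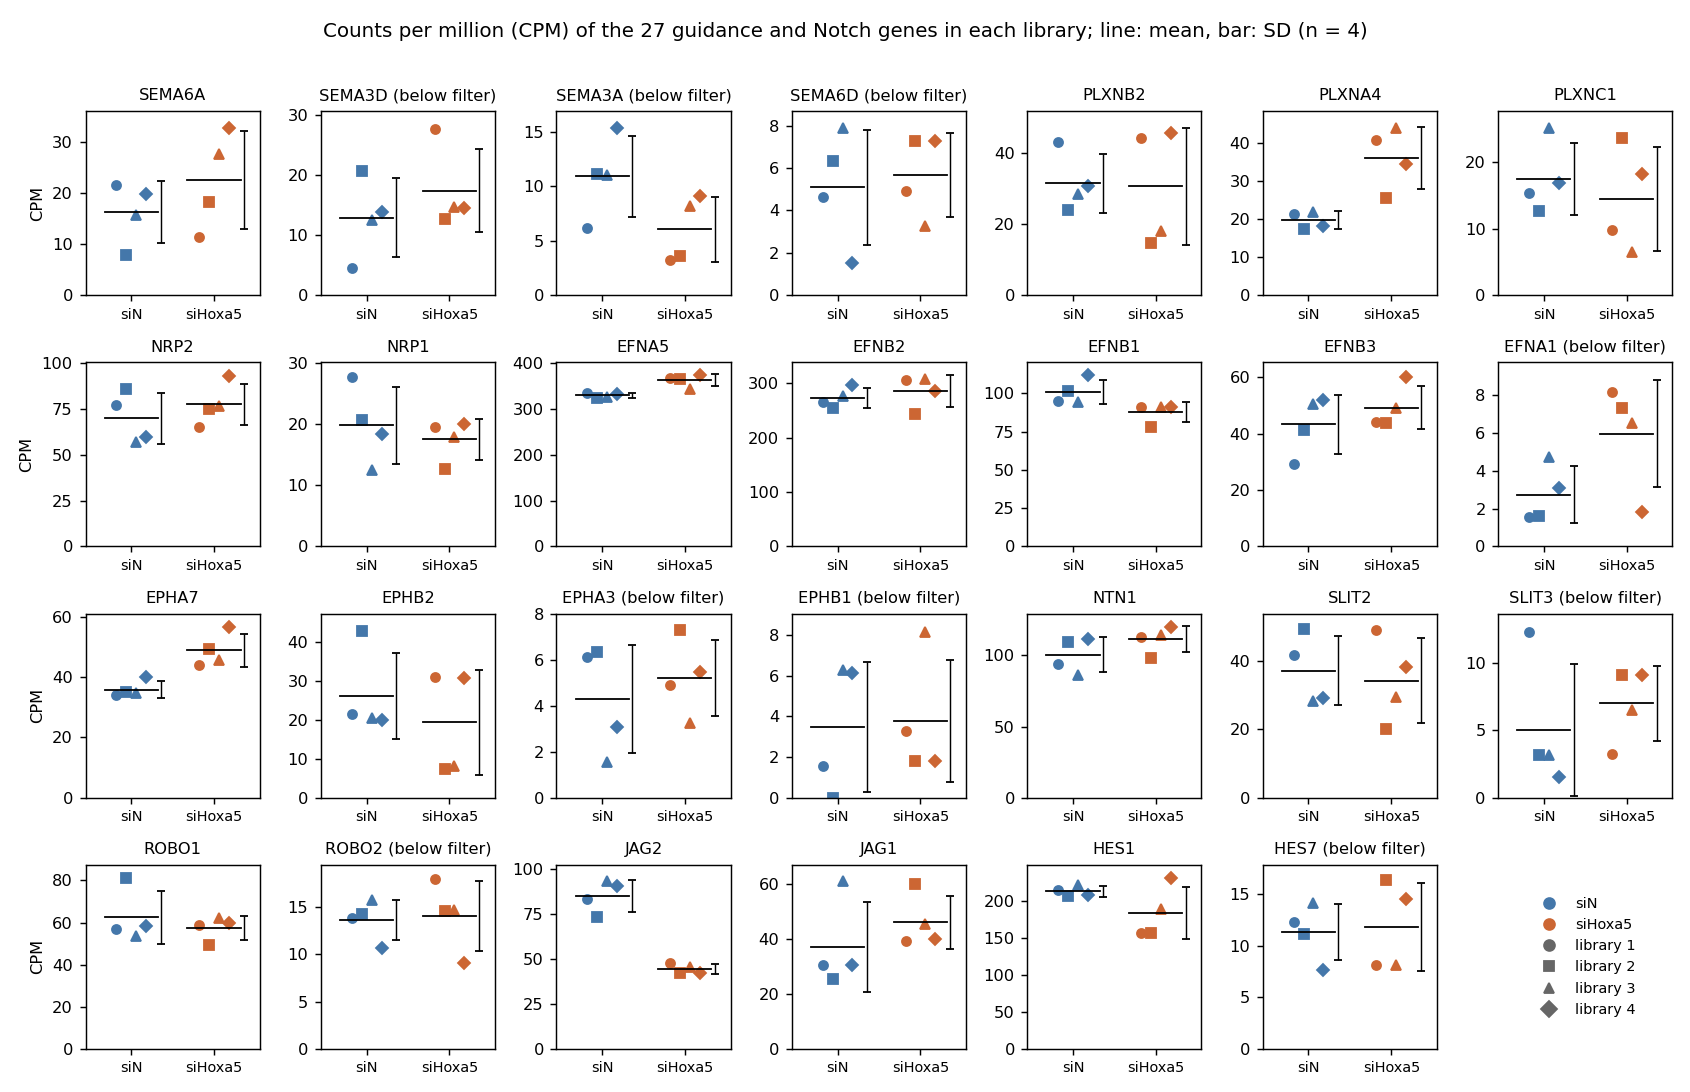
CPM (y axis, from 0) of each of the 27 genes in the 4 siN and 4 siHoxa5 libraries, with the mean as a line and the SD as a bar; the marker shape gives the library number. JAG2 shows the clear gap between groups, 73.0 to 92.9 against 41.8 to 47.35 CPM, while EPHB2 and PLXNB2 split within siHoxa5.

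The receptors' partners and effectors, a list of 70 genes without the genes above, had 32 tested members. Of these 2 rose, 2 fell and 28 did not pass, and the median was -0.01. Over all tested genes 7.12% were called. RGMA, 1 of the genes that rose, met the filter only through the siHoxa5 libraries, where it was high. It had to differ to enter that fit, so its call there is no support. The genes that fell encode small GTPases of the Ras superfamily. RAP1B, which plexins inactivate, had 669 to 759 CPM in siN and 527 to 581 CPM in siHoxa5 (log2 fold change -0.37, SE 0.07, adjusted p = 5.30e-05 in edgeR). CDC42, which drives filopodia, had 2876 to 3031 and 2517 to 2630 CPM (-0.22, SE 0.05, adjusted p = 0.000934 in edgeR). Both passed in all 16 other settings.

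The genes that rose were MICAL3 and RGMA. MICAL3, of the family of actin-oxidizing enzymes that act below plexins, had 35.4, 38.1, 23.6 and 24.5 CPM in siN and 57.2, 61.9, 65.2 and 47.3 CPM in siHoxa5, with no overlap (log2 fold change 0.93, SE 0.24, adjusted p = 0.00390 in edgeR). It passed in 15 of 16 other settings and not without siHoxa5 libraries 2 and 3 (0.78, adjusted p = 0.159). RGMA, a ligand of neogenin, had 7.66 to 13.8 CPM in siN and 24.5 to 25.5 CPM in siHoxa5. Its log2 fold change was 1.34 (SE 0.38, adjusted p = 0.0136 in edgeR) under the filter that it met only through siHoxa5. In the fit of all genes with at least 16 counts, a limit that does not use the groups, it was 1.35 (SE 0.37, adjusted p = 0.0157 in edgeR). With no filter it was 1.35 (SE 0.39, adjusted p = 0.0330 in edgeR). RGMA passed in 11 of the 15 other settings that gave it an adjusted p, DESeq2 giving none. It was not called without siN library 2 or 4, nor without siHoxa5 libraries 2 and 4 or 2 and 3. Its log2 fold change was 1.24 to 1.56 over those 15 settings. Without siHoxa5 libraries 2 and 4 it was 1.32 (SE 0.48), and without 2 and 3 it was 1.34 (SE 0.47).

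Precision differed between these genes. The spread of counts within groups, divided by that of counting error alone, had a median of 1.20 over the 18 tested genes and of 1.38 over all 3020. It was lowest for EFNA5 (0.177) and EPHA7 (0.243). Above 3 lay EPHB2 (4.21) and PLXNB2 (3.27), 2 of 18, while 9.50% of all tested genes did so. The median SE of a log2 fold change was 0.23 for the 18 and 0.17 for all tested genes.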

How the data were processed

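Estimated counts per gene symbol, as deposited by the authors without normalization, were whole numbers except in 4 rows. The tools named in the submitters' processing notes are STAR 2.6.1b, FastQC 0.11.8, R 3.5.3 and HTSeq, beside the build mm10. The sources used here give no annotation, strand setting or treatment of multiply matching reads. The series table matched each library's own file.

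Counts were rounded and tested with edgeR 4.0.16 (TMM, filterByExpr with minimum count 10 and minimum total 15, robust quasi-likelihood fit, group as the only term, all 8 libraries, R 4.3.3). P-values were adjusted by Benjamini-Hochberg over all 3020 tested genes, which held 98.6% of counts, with a threshold of 0.05. SE is the absolute log2 fold change over the root of F, and intervals are 95%. CPM values use TMM-scaled library sizes. DESeq2 1.42.0 and limma-voom 3.58.1 were alternatives, beside other scaling, filters, a repeat-number term and left-out libraries. The edgeR step was tested on simulated data.

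Genes and lists were chosen with earlier results of these data known. The named-gene rule was: HOXA5, every chosen gene passing the filter with values, the gene with most counts per family, any gene with an unadjusted p under 0.05 in the wider fit, those below the filter by counts or range, and of partner lists the called genes and the 2 smallest p. RBPJ, ADAM10, APH1A, MAML3, MIB1, KAT2A, NEO1 and TNNT2 were named outside it, after their values were seen. Mouse positions are from GENCODE M21 (GRCm38) by symbol.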

Additional observations from a re-analysis of the deposited data

Results flagged for a closer look

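In 60 groups of 4 libraries, 5 had a highest or lowest library whose gap to its nearest neighbour took more of the group's range than the 95% limit of Dixon's test, where chance flags about 1 in 20. SEMA3D had 27.8 CPM in siHoxa5 library 1, with the others at 12.75 to 14.7 CPM. EFNB1 had 78.3 CPM in siHoxa5 library 2, with the others at 90.9 to 91.4 CPM. EPHB2 had 42.9 CPM in siN library 2, with the others at 19.9 to 21.5 CPM. SLIT3 had 12.3 CPM in siN library 1, which is 8 counts, with the others at 1.53 to 3.18 CPM. JAG1 had 61.4 CPM in siN library 3, with the others at 25.4 to 30.8 CPM. None of the 5 genes passed the edgeR test with all libraries. Nor did EFNB1 (-0.14), EPHB2 (-0.09) or JAG1 (0.67) without the library named. SEMA3D and SLIT3, below the filter, were not fitted without theirs.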

How the results depend on the processing

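Over all 3020 tested genes, 215 were called (7.12%). DESeq2 called 112 of 2701 (4.15%) and limma-voom 203 (6.72%). With no filter 164 of 7924 were called (2.07%), and with a sum of at least 16, 184 of 4397 (4.18%). Leaving out 1 library gave 145 to 260 (4.74% to 8.42%), and 145 to 155 where it was a siN library. In settings chosen after seeing the data, 143 of 3216 (4.45%) were called without siHoxa5 libraries 2 and 4. Without siHoxa5 libraries 2 and 3 the total was 96 of 3205 (3%). Of the 18 tested genes described here 2 were called. Only JAG2 was called with DESeq2, which gave an adjusted p to 15 of them, and with limma-voom (18 tested). The same held with no filter and with a sum of at least 16 (27 tested each) and without siHoxa5 libraries 2 and 3 (19 tested). Leaving out each library in turn gave 1 to 2 of 18. With the repeat number as a block, 250 genes (8.28%) and the same 2 were called. The labels do not say that repeats are paired, and deviations of same-numbered libraries correlated at -0.02 to 0.07, so the numbers were not taken to pair them. Not every library correlated best with its own number. Of 18 tested genes, 13 kept their direction in every setting that gave a value. None of the other 5 was called in any setting. Leaving out each library in turn gave ranges of -0.29 to 0.17 for PLXNB2, -0.334 to 0.0369 for NRP1, -0.339 to 0.0711 for SLIT2 and -0.181 to 0.0365 for ROBO1. Without siHoxa5 libraries 2 and 3, left out because several of these genes were low in both, which by itself moves such genes up, PLXNB2 had 0.50, EPHB2 0.24 and SLIT2 0.24, and without 2 and 4 SLIT2 had 0.0858. For the other values the cause was not tested. Depth limits the 9 genes below the filter, whose SE in the wider fit was 0.40 to 0.80.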
